A study of Mus musculus with 9 samples.

Results

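The S1 cluster is the skeletal motor neuron (MN) type called Type 3 in the study, one of 3 skeletal types besides alpha MNs (S2) and gamma MNs (S3). Its members are the nuclei with the cluster label S1 in the deposited annotation. They were 1528 of 16042 cholinergic nuclei, next to 1285 of S2 and 2241 of S3. In a separate label for skeletal type, 1526 of the S1 nuclei were Type 3, 1 was alpha and 1 was gamma. Nuclei came from spinal cords of Chat-IRES-Cre::Sun1-sfGFP mice (Chat-iCre:+/wt; SUN-SfGFP:+/wt), all 8 weeks old and untreated, in which any cell that has at some time expressed Chat keeps a GFP-tagged nuclear envelope. Mice were pooled, 4 to a pool, and the cords of each of 3 pools were cut into a cervical, a thoracic and a lumbar/sacral part, which makes 9 libraries of sorted GFP+ nuclei. Pool 1 (replicate 1) held 2 males and 2 females, pool 2 males and pool 3 females. The 3 libraries of a pool share their mice, and sex cannot be told apart from the pool.

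Alpha MNs innervate the extrafusal fibres that move a muscle, gamma MNs innervate the intrafusal fibres of the muscle spindle and set its sensitivity to stretch, and beta MNs innervate both. All are cholinergic cells of the ventral horn and share the genes that make, load and take up acetylcholine or its precursor. Alpha MNs are known for the neuronal splicing factor Rbfox3 (NeuN), and gamma MNs for the nuclear receptors Esrrg and Esrrb, the serotonin receptor Htr1d, the GDNF co-receptor Gfra1 and the signalling protein Wnt7a.

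The values are corrected counts: whole numbers that the SCTransform model gave the authors for each nucleus to even out sequencing depth. Totals per nucleus still differed between libraries. They were summed over the S1 nuclei of a library and scaled to a fixed total (CPM). A level in CPM compares 1 gene between groups and not 1 gene with another. S1 gave 37 to 265 nuclei per library, with a median total of 7413 corrected counts and 3159 genes per nucleus. Scrublet marked 25 S1 nuclei (1.64%) as doublets, and they were kept. Among all annotated nuclei, 130 barcodes occurred in more than 1 library, 13 of them named an S1 nucleus, and 0 named S1 nuclei in both libraries. The libraries were not equally clean. By the Hox genes, which mark position along the cord, the library labelled cervical replicate 2 and the one labelled thoracic replicate 2 went against their labels: Hoxc5 in S1 was at 11.4 and 6.82 CPM in cervical replicates 1 and 3 but at 68.8 in replicate 2, and at 90.8 and 93.5 in thoracic replicates 1 and 3 but at 7.30 in replicate 2. Hoxa9 showed the same, with 13.4 CPM in the library labelled cervical replicate 2 and 0.405 in the one labelled thoracic replicate 2. Also, the 71 S2 nuclei of cervical replicate 2 stood apart: the skeletal MN markers Tns1, Prph, Isl1 and Mnx1 summed to 134 CPM there, against a median of 629 over the 9 S2 libraries, and Gpr149, a marker of S1, had a count in 95.8% of them. Stxbp6 and Sphkap, also S1 markers, each had a count in 98.6% of them. By level, however, Rreb1, Stxbp6 and Sphkap were lowest there of the 9 S2 libraries (19.6, 153 and 139 CPM). Cntnap3 and Colq, both high in S1, were at 0 CPM. Lumbar/sacral replicate 2 differed from this: 67.2% of its 58 S2 nuclei had a Gpr149 count, and Cntnap3 had its highest S2 level there (42.9 CPM). Counts of genes called, shares of nuclei and positions that move with these libraries are given with and without them.

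Start regions of some genes that were higher in S1 than in both other types are shown first, because the data below turn on such genes, Rora among them. Rora is a nuclear receptor, and nuclear receptors of its kind bind the motif AGGTCA. The 250 bases before a RefSeq start (GRCm38.p6) are given for Cntnap3, which differed most, at chr13:64903889-64904138, minus strand, for Rph3al at chr11:75925892-75926141, minus strand, and for Npnt at chr3:132950292-132950541, minus strand. Capitals mark AGGTCA on either strand (TGACCT is its reverse complement), of which Cntnap3 has 0, Rph3al 2 and Npnt 1. That Rph3al and Npnt hold the motif follows from how they were picked. Where a gene had more than 1 start, a start with the motif was preferred. The Rph3al stretch lies inside the gene, whose outermost start by GENCODE is at 75938429.
Cntnap3: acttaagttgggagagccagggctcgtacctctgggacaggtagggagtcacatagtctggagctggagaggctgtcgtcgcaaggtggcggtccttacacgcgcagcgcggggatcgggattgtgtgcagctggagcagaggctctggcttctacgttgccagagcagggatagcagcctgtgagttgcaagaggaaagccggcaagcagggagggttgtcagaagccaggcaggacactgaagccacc
Rph3al: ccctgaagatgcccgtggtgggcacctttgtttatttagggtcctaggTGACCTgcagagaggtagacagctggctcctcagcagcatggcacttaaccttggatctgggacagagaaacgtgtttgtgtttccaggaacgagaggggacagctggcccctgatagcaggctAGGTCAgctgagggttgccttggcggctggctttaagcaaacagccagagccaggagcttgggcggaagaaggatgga
Npnt: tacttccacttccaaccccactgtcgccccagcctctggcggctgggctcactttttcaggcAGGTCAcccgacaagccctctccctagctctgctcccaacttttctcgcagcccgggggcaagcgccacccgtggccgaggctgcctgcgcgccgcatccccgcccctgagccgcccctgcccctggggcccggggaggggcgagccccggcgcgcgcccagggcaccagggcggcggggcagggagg
Of the 86 genes called higher in S1 than in both other types (below), 52 had a start in the RefSeq table, and 13 of these (25%) held AGGTCA in the 250 bases, against 12.6% of the 8562 tested genes with a start and 15.8% of all 27025 genes with a start. A gene with more than 1 start was counted if any of them held the motif. The number of starts per gene was not taken into account. The longer ROR element was in 1 of the 52 and in 0.444% of tested genes, and the ERR element TNAAGGTCA in 0 of the 52 and in 0.747%. The longer elements contain the short one, both strands were read, and a match is a string of letters, not a bound site.

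S1 carried its own markers in every library, had little of the alpha markers, and held some gamma markers but not others. Gpr149, which encodes an orphan G protein-coupled receptor (chromosome 3, 62529077 to 62605140, minus strand, GRCm38), had 385, 411 and 464 CPM in S1 (lowest, median and highest of 9 libraries). In S2 the same values were 29.6, 88.7 and 229, and in S3 4.30, 15.7 and 25. The S1 range lay above those of S2 and S3. The S1 mean of 420 ± 28.0 (SD, n = 9) was above S2 by 2.30 ± 0.27 (SE) on the log2(CPM + 5) scale and above S3 by 4.58 ± 0.27. Stxbp6, or amisyn, a syntaxin-binding protein of the SNARE machinery (chromosome 12, 44852484 to 45074709), ran from 582 to 771 CPM in S1 with a median of 700, against medians of 256 in S2 and 19.5 in S3. Sphkap, an anchor of protein kinase A (chromosome 1, 83254139 to 83408200), ran from 351 to 618 CPM with a median of 453, against 203 and 14.9. Rreb1, a zinc finger transcription factor of Ras signalling (chromosome 13, 37778400 to 37952005), ran from 215 to 312 CPM with a median of 238, against 95.4 and 43.8. For each of the 4, S1 was above S2 and S3 in 9 of 9 libraries. These genes were given with the label, and clusters were drawn from the same nuclei, so the differences from S2 and S3 describe the cluster and are no test that it exists: a p-value between types says only how well a difference repeats over libraries.

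**Figure D1:**
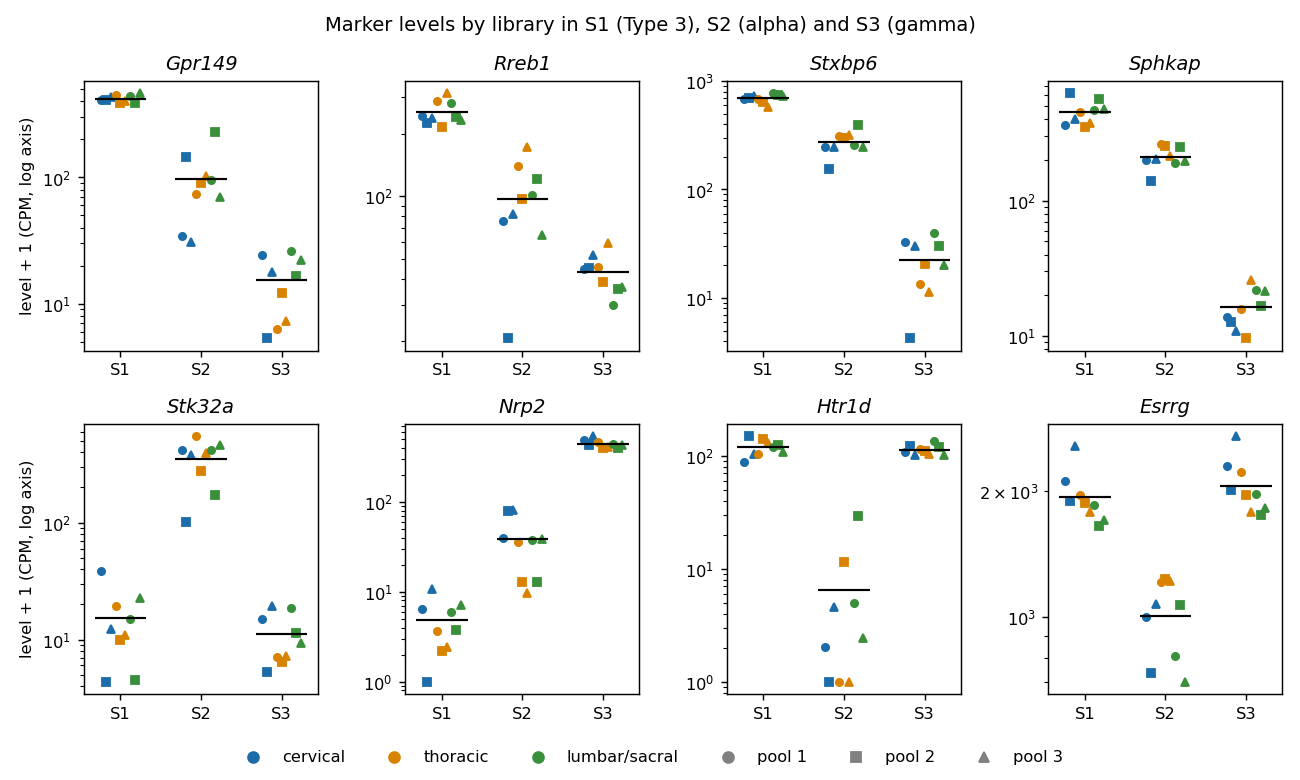
Levels of marker genes (CPM + 1, log axis) in S1 (Type 3), S2 (alpha) and S3 (gamma), with 1 point per library in the colour of its labelled region. The 4 Type 3 markers are highest in S1 in every library, while the alpha marker Stk32a and the gamma marker Nrp2 are low in S1.

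Among the alpha markers, Stk32a, a serine/threonine kinase, had a median of 11.4 CPM in S1 against 392 in S2, and Sv2b, a synaptic vesicle glycoprotein, 14.2 against 326. Rbfox3 had 35.8 ± 8.34 CPM in S1, 229 ± 90.5 in S2 and 64.3 ± 14.6 in S3 (mean ± SD, n = 9). Glis3, a zinc finger factor, was near 0 in S1 (1.38 ± 1.40 CPM against 139 ± 96.8 in S2). All 4 alpha markers were called lower in S1 than in S2, and 0 of 4 differed by the call from S3.

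The gamma markers were divided. Nrp2, a semaphorin co-receptor, had 0, 2.79 and 9.66 CPM in S1 as lowest, median and highest value, against 395, 431 and 532 in S3. S1 thus lay below every S3 library and also below S2 in 9 of 9 libraries (difference -2.08 ± 0.22). In contrast, Htr1d had a median of 118 CPM in S1 and 109 in S3, but 1.42 in S2, and the S1 and S3 ranges overlapped (87.4 to 148 and 100 to 136). The difference between S1 and S3 was 0.06 ± 0.21 (limma, adjusted p = 0.93), that between S1 and S2 3.87 ± 0.21 (adjusted p = 5.9e-13). Esrrg, the estrogen-related receptor that defines gamma MNs, had 1869 CPM as S1 median, 1968 in S3 and 1068 in S2. Its S1 to S2 difference of 0.96 ± 0.09 was below the size needed for a call. Esrrb, its close relative, had 182 ± 35.9 CPM in S1, 214 ± 34.5 in S3 and 59.1 ± 22.3 in S2. Wnt7a was higher in S1 (33.5 ± 10.0 CPM) than in S3 (13.4 ± 4.60) and S2 (3.13 ± 2.61), but the call against S3 was lost under 7 alternatives, among them those without cervical replicate 1 or thoracic replicate 1 or 2. Plekhg1, a guanine nucleotide exchange factor, lay between, with 105 ± 28.9 CPM in S1, 530 ± 106 in S3 and 23.8 ± 19.0 in S2. Gfra1 was lowest in S1, with 381 ± 57.5 CPM against 742 ± 103 in S3 and 488 ± 135 in S2. S1 lay below S3 in 9 of 9 libraries (difference -0.96 ± 0.10) and below S2 in 8 (-0.30 ± 0.10). Both differences were below the size needed for a call.

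Single nuclei, read from the same corrected counts, gave the same picture. A count of Gpr149 was found in 91.1 ± 4.35% of S1 nuclei per library (mean ± SD, n = 9), in 39.8 ± 25.6% of S2 and 9.0 ± 2.72% of S3. Without cervical and lumbar/sacral replicates 2, whose S2 nuclei stood apart, the S2 value was 27.9 ± 7.92% (n = 7). Stxbp6 had a count in 97.7 ± 1.98% of S1 nuclei, Sphkap in 89.8 ± 6.35% and Rreb1 in 81.4 ± 10.2%. All 4 occurred together in 931 of 1528 S1 nuclei (60.9%; 95% Wilson interval 58.5 to 63.3%, for counting error only), in 10.1% of S2 nuclei (8.48% without those libraries) and 0.134% of S3 nuclei. At least 3 of the 4 occurred in 1405 S1 nuclei, and 2 S1 nuclei had none. Gpr149 without Stk32a or Nrp2, a simple rule among the skeletal types, held for 1244 S1 nuclei (81.4%), 53 S2 nuclei (4.12%) and 13 S3 nuclei (0.58%). It was not counted in visceral MNs or interneurons, and the visceral MN clusters V9 and V6 had higher mean Gpr149 levels than S1 (below). By library the S2 share ran from 0 to 41.4%, the highest in lumbar/sacral replicate 2, without which it was 29 of 1227 nuclei (2.36%). Of 28 comparisons, those of 14 Type 3, alpha and gamma markers with S2 and with S3, 24 passed the two-sided exact sign-flip test over 9 libraries (smallest p possible 0.00391, adjusted 0.00521), also when all nuclei were thinned to 4600 corrected counts. The clusters were drawn from these same nuclei, so a pass says only that a difference repeats over libraries. Htr1d had a count in 58.2 ± 13.6% of S1 nuclei and 59.4 ± 14.2% of S3 nuclei, a difference of -1.12 ± 7.39 points (SD over libraries; exact sign-flip p = 0.652, adjusted p = 0.677).

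The 4 markers were not equally particular to S1 among the 21 cholinergic clusters. Rreb1, Stxbp6 and Sphkap had their highest mean level in S1, but Stxbp6 had 562 ± 123 CPM in interneuron cluster I3 and Sphkap 415 ± 158 in visceral MN cluster V8 (n = 3 libraries). Gpr149 came after V9 with 573 ± 146 (n = 6) and V6 with 431 ± 147 (n = 8), and was close to V1 with 399 ± 82.1. The spread of V6 and V1 includes the S1 mean. Of markers of cells other than MNs, the 5 astrocyte markers summed to between 0.568 and 5.27 CPM in S1. The microglia markers summed to between 31.1 and 145 CPM in S1, 19.6 and 194 in S2, and 22.8 and 148 in S3. Mbp, a myelin protein of oligodendrocytes, had 88.3 ± 18.7 CPM in S1, 89.3 ± 30.9 in S2 and 24.1 ± 4.07 in S3. The summed oligodendrocyte markers ran from 63.7 to 132 CPM in S1, 52.0 to 149 in S2 and 31.6 to 57.0 in S3, and the part of either cell type in the differences between types was not tested. Chat, the enzyme that makes acetylcholine, had 298 ± 18.5 CPM in S1, 257 ± 48.1 in S2 and 295 ± 29.6 in S3.

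Across all genes S1 was about equally far from both other types. Calls took an adjusted p under 0.05 (limma on log2(CPM + 5) of library sums, a term for the library, Benjamini-Hochberg over 11465 genes) and a difference of at least 1. Against S2, 600 genes (5.23%) were called, 229 higher (2.0%) and 371 lower (3.24%) in S1. Against S3, 611 genes (5.33%) were called, 315 higher (2.75%) and 296 lower (2.58%). Without cervical replicate 2 the counts were 678 and 594, and without the cervical and thoracic libraries of pool 2 they were 701 and 591. Profiles of S1 correlated across genes with those of S2 and S3 of the same library at a median Pearson r of 0.921 (0.848 to 0.931) and 0.924 (0.889 to 0.948), and with those of the other 18 clusters at medians of 0.783 to 0.848. The genes are not independent replicates, and the sums share library and depth, so these values only describe.

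Of the genes called, 86 (0.75%) were higher in S1 than in both other types and 54 (0.471%) lower than in both. A further 109 (0.951%) were high in S1 and S2 over S3, with S1 within 0.5 of S2, and 57 (0.497%) were high in S1 and S3 over S2. Of the 86, 73 were higher in every library, 71 are protein-coding by GENCODE, 53 had their highest mean in S1 of all 21 clusters and 34 were there at least 2 times any other cluster. Of the 54, 41 were lower in every library, and 15 had their lowest mean in S1. Just inside the limit for the 86 were Fbxl21, Cmas and Bmpr1b (smaller difference 1.0, 1.0 and 1.01), and just outside it Plpp3, Prcd and Uts2 (1.0, 0.99 and 0.98). Without cervical replicate 2 the counts were 77 and 57.

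**Figure D2:**
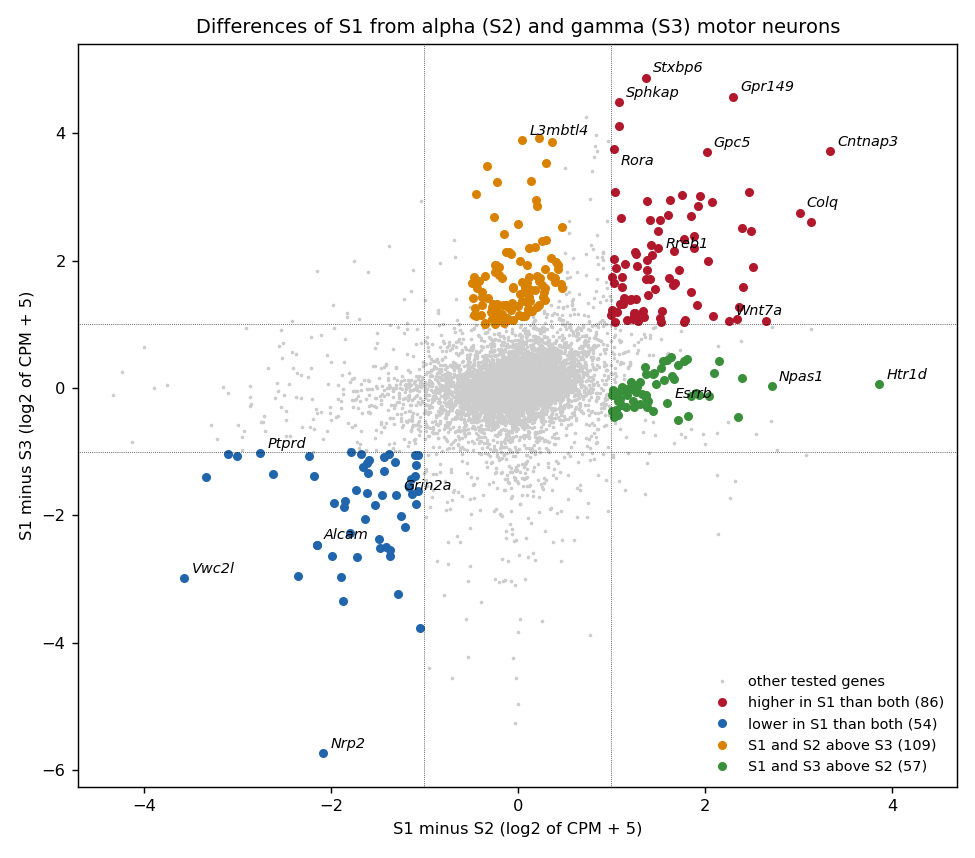
Each point is a gene, placed by its difference of S1 from S2 (horizontal axis) and of S1 from S3 (vertical axis), both on the log2(CPM + 5) scale; colours mark the 86 genes higher and the 54 lower in S1 than in both and the genes shared with 1 type. Cntnap3 and Colq lie far out at the upper right, Nrp2 and Vwc2l at the lower left.

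Cntnap3 (chromosome 13, 64736182 to 64903955, minus strand), of the contactin-associated family of neuronal adhesion proteins, differed most. It had 119, 128 and 200 CPM in S1, 0, 5.54 and 42.9 in S2, and 2.55, 7.03 and 10.4 in S3. No S2 or S3 library reached the lowest S1 library. The difference was 3.34 ± 0.28 from S2 (adjusted p = 1.01e-09) and 3.72 ± 0.28 from S3 (adjusted p = 7.6e-11), and the next highest cluster, V6, had a mean of 28.3 ± 44.9 CPM. Colq (chromosome 14, 31523082 to 31591343, minus strand) encodes the collagen tail that anchors acetylcholinesterase in the synaptic cleft of the neuromuscular junction. It had 44.3, 56.6 and 71.1 CPM in S1, 0, 1.31 and 14.6 in S2, and 0, 4.30 and 7.90 in S3. The S1 mean of 56.9 ± 7.60 CPM stood against at most 4.87 ± 4.30 in any of the other 20 clusters, that of I6. A count of Colq was found in 509 S1 nuclei (33.3%) and 26 S2 nuclei (2.02%). Acetylcholinesterase itself, Ache, was not called, with 38.2 ± 6.76 CPM in S1, 33.2 ± 14.6 in S2 and 47.9 ± 11.3 in S3.

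Others of the 20 leading genes had known roles of several kinds. Rph3al, a Rab effector of regulated exocytosis, had 58.2 ± 11.6 CPM in S1 against 9.37 ± 12 and 2.44 ± 0.976. C1qtnf4, a secreted protein of the C1q/TNF family, had 199 ± 52.6 CPM against 43.2 ± 39.8 and 30.7 ± 9.17. Gpc5, a heparan sulfate proteoglycan of the cell surface, had 1017 ± 174 CPM against 270 ± 138 and 87.9 ± 53.9. Each of the 3 was higher in S1 in 9 of 9 libraries. Gfra2, the co-receptor for neurturin, had 42.3 ± 11.4 CPM in S1 against 10.2 ± 5.14 in S2 and 5.46 ± 1.91 in S3. Lmcd1, a LIM domain regulator of transcription, had 40.7 ± 8.65 CPM against 8.06 ± 6.12 and 0.599 ± 0.663. Car3, a carbonic anhydrase, had 23.3 ± 16.6 CPM against 3.1 ± 4.59 and 1.67 ± 1.40. The rest of the 20 were Gpr149, Mlip, Iqsec1, Hsd17b14, Sh3d19, Fbln5, Svil and the less known AC163354.1, A930001A20Rik, Gm27008, Gm44593 and 1110002J07Rik. Gm27008 overlaps the antisense strand of Kcna3, and AC163354.1 has no entry in the annotation used, so neither is placed further. Rora (chromosome 9, 68653786 to 69388246) also belonged to the 86. It had 10496, 11582 and 15626 CPM in S1, 3674, 5942 and 7745 in S2, and 674, 872 and 1219 in S3, without overlap, and differed by 1.03 ± 0.11 from S2 and 3.76 ± 0.11 from S3. The difference from S2 was close to the size needed for a call (1 on this scale), and the call was lost under 7 alternatives, among them those without cervical replicate 1, 2 or 3, where the difference was just under 1, 0.946 and 0.968.

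Genes lower in S1 than in both included adhesion and guidance proteins. Vwc2l, a secreted protein with von Willebrand factor C domains, had 5.59, 16.6 and 35.9 CPM in S1, 90.6, 238 and 389 in S2, and 102, 153 and 246 in S3. S1 lay below both in 9 of 9 libraries, by -3.57 ± 0.12 and -2.99 ± 0.12. Alcam, an adhesion molecule of the immunoglobulin family, had a median of 60.0 CPM in S1 against 277 and 352. Parm1, a mucin-like membrane protein, had 5.26 ± 2.96 CPM against 47.7 ± 14.9 and 73.0 ± 18.5. Both lay below S2 and S3 in 9 of 9 libraries. Pde4b, which breaks down cyclic AMP, had 230 ± 70.1 CPM against 798 ± 184 and 1118 ± 234. Calcb, the beta form of the neuropeptide CGRP, had 3.03 ± 2.41 CPM in S1, 26.4 ± 14.2 in S2 and 25.5 ± 12.1 in S3. The other genes named by the same rule were Palmd, Nrp2, Palld, Pmp22, Pappa, Gria1 and Frmd4b.

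S1 shared some genes with alpha MNs and others with gamma MNs. Crtac1, a cartilage acidic protein, had 335 ± 44.4 CPM in S1 and 288 ± 48.2 in S2, but 18.0 ± 6.64 in S3. Kitl, the ligand of the receptor tyrosine kinase Kit, had 198 ± 35.0 and 159 ± 21.6 against 13.3 ± 6.26. L3mbtl4, Ajap1, Gna14, Ptprz1, Zmat4, Itga6, Rtl4 and Pdgfd were the other leading genes of this group. On the gamma side, Htr1d led, followed by Npas1, a transcription factor with 120 ± 22.0 CPM in S1, 119 ± 26.9 in S3 and 22.0 ± 26.9 in S2. Kcnc1, which encodes the fast potassium channel Kv3.1, had 130 ± 26.9 CPM in S1, 140 ± 24.9 in S3 and 35.6 ± 21 in S2. Shc4, Ripor2, Dapk1, Pnoc, Asic2, Hunk and Tgfbr2 completed this group of 10.

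To place S1 between the other types, each gene that differed between S2 and S3 was given a position, 0 for the level of S3 and 1 for that of S2. Over the 554 genes higher in S2 (4.83% of those tested), the median position of S1 was 0.34, with 224 genes nearer S2 and 330 nearer S3. Over the 377 genes higher in S3 (3.29%), it was 0.73, with 233 genes nearer S2 and 144 nearer S3. S1 thus lay on the low side for both sets of genes. The other 18 clusters, which are visceral MNs and interneurons, also lay low, with medians of -0.02 to 0.21 for genes higher in S2 and 0.61 to 1.11 for genes higher in S3. Of the 554 genes, 123 were lower in S1 than even in S3 and 103 were higher than in S2. A second measure was taken by library: the summed S1 minus S3 difference of the genes divided by their summed S2 minus S3 difference. It is not a median over genes and need not equal the values above. By this measure the position was 0.483 ± 0.162 for genes higher in S2, where cervical replicate 2 had 0.904. Without that library, whose S2 nuclei stood apart, it was 0.430 ± 0.0378 (SD, n = 8). For genes higher in S3 it was 0.679 ± 0.0708 (n = 9). Without cervical and lumbar/sacral replicates 2 the positions were 0.418 ± 0.0158 and 0.652 ± 0.0318 (n = 7). No test was made, since the genes were picked on the same nuclei.

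**Figure D3:**
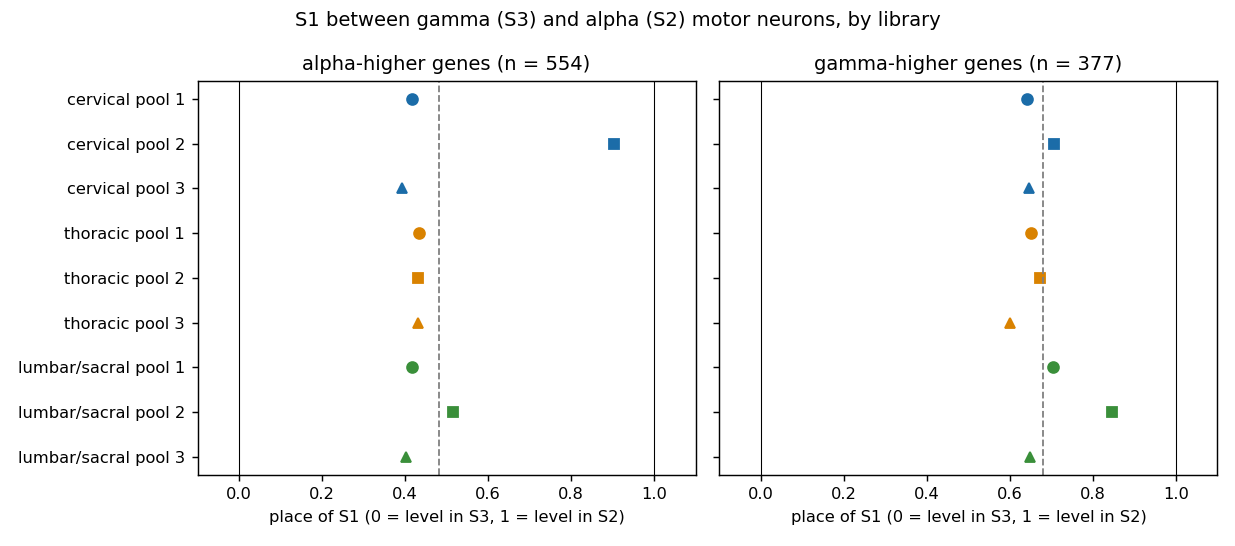
Position of S1 between gamma MNs (0) and alpha MNs (1) in each library, for the 554 genes higher in S2 and the 377 genes higher in S3. It is the summed S1 minus S3 difference of the genes divided by their summed S2 minus S3 difference. For genes higher in S2, 8 libraries lie between 0.393 and 0.516 and the library labelled cervical replicate 2 lies at 0.904; for genes higher in S3, the libraries lie between 0.599 and 0.846.

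Genes of known roles were read by list, each count to be set against the 5.23% and 5.33% of all genes called. The median difference over all genes tested was 0.02 from S2 and 0.02 from S3. Of 9 genes of the C-bouton, the cholinergic synapse on the MN soma, and of its channel clusters, only Kcnn3 was called, lower in S1 (66.1 ± 19.3 CPM) than in S2 (148 ± 46.7), and 0 of 9 were called against S3. The list median was -0.03 against S2 and -0.02 against S3. Chrm2, the muscarinic receptor opposite the C-bouton, had 530 ± 120 CPM in S1, 758 ± 174 in S2 and 557 ± 124 in S3. Genes known from fast alpha MNs were low: 4 of 6 tested were lower in S1 than in S2 and 0 higher (median -1.27). Among them was Chodl, chondrolectin, at 0.806 ± 0.805 CPM in S1 and 43.3 ± 30.3 in S2. Of 5 genes known from slow alpha MNs, 2 were higher than in S2 (median 0.83): Esrrb and the vesicle protein Sv2a, at 66.2 ± 15.4 CPM in S1 against 31.7 ± 18.0. The Sv2a call was lost under 8 alternatives (lowest difference 0.662), those without cervical replicate 1 or 3 or lumbar/sacral replicate 1 or 3 among them. Neither of these 2 differed by the call from S3, and Prkcd, a protein kinase C, was called against S3 alone (135 ± 25.5 CPM in S1, 83.9 ± 39.7 in S2, 4.33 ± 3.70 in S3). Osteopontin, Spp1, was low in S1 (2.53 ± 2.14 CPM) and S3 (3.64 ± 2.47) and higher in S2 (23.6 ± 9.68).

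Of 50 transcription factors known in MNs, 6 were higher and 4 lower in S1 than in S2 (median 0.01), and 5 higher and 6 lower than in S3 (median -0.13). Rora, Rreb1 and Foxp2 were higher than in both, and Foxp2, a forkhead factor, had 29.5 ± 7.92 CPM in S1 against 11 ± 11.5 and 5.59 ± 2.95. Creb5 and Tshz2 were low in S1 and S2 against S3: Creb5 had 209 ± 51.7, 217 ± 68.5 and 1781 ± 174 CPM. Isl1, the LIM homeobox factor of MNs, was called in neither comparison, with 61.1 ± 22.7 CPM in S1. Ppargc1a, a coactivator of mitochondrial genes, was intermediate, with 123 ± 13.9 CPM in S1, 59.2 ± 12.2 in S2 and 259 ± 21.9 in S3, and was called against both. Its call was lost under 8 alternatives against S2 (lowest difference 0.82) and 2 against S3.

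Transmitter receptors differed by subunit. Of 19 tested GABA and glycine receptor genes, 5 were higher and 2 lower in S1 than in S2 (median 0.15), and 1 was higher and 1 lower than in S3 (median 0.22). Gabrd, the delta subunit of GABA-A receptors outside synapses, had 22.9 ± 5.20 CPM in S1, 5.57 ± 2.73 in S2 and 0.861 ± 0.855 in S3. Gabrb1 had 1054 ± 300 CPM against 426 ± 95.3 and 727 ± 230, and Gabra4 and Gabrg3 were also higher than in S2. Of 18 ionotropic glutamate receptor genes, 1 was higher and 3 lower than in both other types (median -0.16 against S2 and -0.11 against S3). The NMDA receptor subunit Grin2c had 51.7 ± 14.3 CPM in S1 against 19.5 ± 12.7 and 2.29 ± 1.52. Grin2a, another NMDA receptor subunit, had 200 ± 73.7 CPM against 489 ± 159 and 611 ± 65.7, and the AMPA receptor subunit Gria1 40.5 ± 24.8 against 137 ± 67.9 and 268 ± 136. The kainate receptor subunit Grik1 was also called lower, but lost the call against S2 under 19 alternatives. Of 23 tested modulator receptors, 4 were higher and 4 lower than in S2 (median -0.12). Tacr1, the substance P receptor, had 0, 2.63 and 9.91 CPM in S1 against 22.0, 82.3 and 128 in S2, and Trhr, the receptor for thyrotropin-releasing hormone, 1.55 ± 2.13 against 55.3 ± 22.8.

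Among channels, 5 of 51 potassium channel genes were higher and 7 lower in S1 than in S2 (median -0.22). Kcnb2, a delayed rectifier, had 216 ± 71.2 CPM in S1, 1145 ± 358 in S2 and 234 ± 52.7 in S3. Kcnj6, a G protein-gated inward rectifier, had 4.34 ± 2.66, 19.7 ± 11.6 and 82.7 ± 22.2 and was lower than in both. Of 33 sodium, calcium and HCN channel genes, 1 was higher and 3 lower than in S2 (median 0.02). Cacna1g, a T-type calcium channel, had 5.32 ± 2.22 CPM in S1 against 59.0 ± 25.4 in S2, whereas the L-type channel Cacna1c had 1200 ± 248 in S1 against 190 ± 46.4 in S3. Of 48 genes of vesicle release, 10 were higher and 3 lower in S1 than in S2 (median 0.07), 6 higher and 1 lower than in S3 (median 0.04), and 5 were higher than in both. These 5 included Stxbp6, Cadps2, a priming factor of dense-core vesicles, and Syt16, a synaptotagmin with 94.9 ± 16.9 CPM in S1 against 29.0 ± 31.4 and 35.3 ± 6.22. Otof, a calcium sensor of release, was low in S1 (4.32 ± 2.75 CPM) and high in S3 (184 ± 23.8).

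Axon guidance and matrix genes had more lower than higher calls against S2, and the adhesion lists did not. Of 50 axon guidance genes, 3 were higher and 10 lower in S1 than in S2 (median -0.26), 5 higher and 7 lower than in S3 (median -0.04), and 0 were higher than in both while 4 were lower. Besides Nrp2, the semaphorins Sema6d (38.5 ± 20.5 CPM in S1, 180 ± 148 in S2, 394 ± 80.2 in S3) and Sema5a (7.79 ± 4.22, 28.4 ± 10.9 and 73.0 ± 19.6) were lower than in both. Of 58 genes of the extracellular matrix, 3 were higher and 11 lower than in S2 (median -0.10). Of 28 cadherins and protocadherins, 4 were higher and 4 lower (median -0.08), and of 64 genes of synaptic and cell adhesion, 5 and 5 (median 0.05). Pcdh11x, a protocadherin, had 306 ± 78.8 CPM in S1 against 94.9 ± 78.3 and 109 ± 44.2. The cytoskeletal genes of the axon gave no call in 20 genes (medians -0.11 and -0.03), and of 24 genes of MN disease 1 was lower than in S2 and 1 higher than in S3. Epha4, a modifier of MN disease, was that higher one, with 172 ± 36.7 CPM in S1, 95.5 ± 37.8 in S2 and 43.7 ± 12.1 in S3. Sod1 and Tardbp were not called, and Tardbp had 56.4 ± 11.5, 51.4 ± 13.7 and 57.6 ± 12.9 CPM.

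S1 occurred in all 3 regions. Its share of skeletal MN nuclei was 24.6, 22.3 and 30.1% in cervical replicates 1, 2 and 3, 25.9, 38.6 and 37.3% in thoracic, and 31.6, 32.9 and 27.5% in lumbar/sacral libraries. Means were 25.7 ± 4.03, 34.0 ± 6.97 and 30.6 ± 2.83% (SD, n = 3), and the groups overlapped. A two-sided exact permutation test over libraries gave p = 0.204 for the 3 regions and p = 0.857 for lumbar/sacral against the rest (84 groupings). Of all cholinergic nuclei, S1 made up 4.49 to 15.2% per library (exact permutation p = 0.682 and 0.393). Without the cervical and thoracic libraries of pool 2 the first p was 0.638. These tests count 9 libraries, the shares depend on how nuclei were sorted, and a p of this size does not show equal shares.

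Levels within S1 were tested between lumbar/sacral and the other libraries. Region had entered the preparation of the values: per the paper, regions were corrected separately by SCTransform and joined through anchors before clustering. The median total of S1 nuclei was 4918.5, 7374.5 and 5898 corrected counts in lumbar/sacral libraries 1 to 3, and 7090 to 16229 in the rostral ones. The part of either in the differences by region was not tested. Without a term for the pool, 0 of 10025 genes (0.0%) were called by limma at an adjusted p under 0.05, and 439 had an unadjusted p under 0.05. With the pool as a block, which the design allows because the 3 libraries of a pool come from the same mice, 23 genes (0.229%) were called, 7 higher (0.0698%) and 16 lower (0.16%) in lumbar/sacral S1. Without the cervical and thoracic libraries of pool 2 and without the block, 2 genes were called. Hoxd11, a position gene of the caudal cord, had 0 CPM in each of the 6 rostral libraries and 19.0, 21.7 and 23.4 in the lumbar/sacral ones. Fgf10, a fibroblast growth factor, had 0.599, 6.72 and 1.14 CPM in cervical, 1.32, 4.05 and 1.42 in thoracic, and 19.0, 22.4 and 27.8 in lumbar/sacral libraries 1 to 3. Mctp2, a calcium-binding membrane protein, had 57.5, 35.3 and 47.2, then 29.0, 37.3 and 35.4, then 161, 94.3 and 105 CPM. In each of the 3 genes the lumbar/sacral libraries lay above all others. The difference from the rest was also found in S2 and S3. It was 2.40 in S1, 2.58 in S2 and 3.28 in S3 for Hoxd11, 1.94, 0.87 and 1.55 for Fgf10, and 1.46, 2.01 and 2.16 for Mctp2. Fgf7, Egfem1, Mlip and Adra1a, an adrenergic receptor, were also higher.

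Among the 16 lower genes were receptors. Epha6, an ephrin receptor, had 785, 690 and 840 CPM in cervical S1, 848, 528 and 520 in thoracic S1 and 307, 239 and 309 in lumbar/sacral S1. Its difference was -1.27, with an adjusted p of 0.00675 with the block and 0.0546 without (limma). Gabrg3, the gamma-3 subunit of GABA-A receptors, had 850, 406 and 882, then 457, 457 and 518, then 254, 168 and 203 CPM (difference -1.44, adjusted p = 0.0114 with the block). Grin2a had 247, 284 and 253, then 274, 176 and 228, then 154, 85.9 and 102 CPM (difference -1.09, adjusted p = 0.0241 with the block). In S2 the same difference was -0.71 for Epha6, -0.04 for Gabrg3 and -0.31 for Grin2a, and in S3 it was -1.24, -0.53 and -0.16. In these 3 genes every lumbar/sacral S1 library lay below every other S1 library, a pattern that 2.97% of all 10025 genes had in either direction. Grm8, a metabotropic glutamate receptor, Cntn3, an adhesion protein, and Ptprd, a receptor phosphatase, were lower too, as were Gm30382, Gpc6, March1, Greb1l, Ralyl, Lingo2, Pitpnc1, Olfm3, Kctd8 and Pam. Between cervical and thoracic S1, 0 genes were called and 398 had an unadjusted p under 0.05, with the 2 libraries that go against their labels included.

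**Figure D4:**
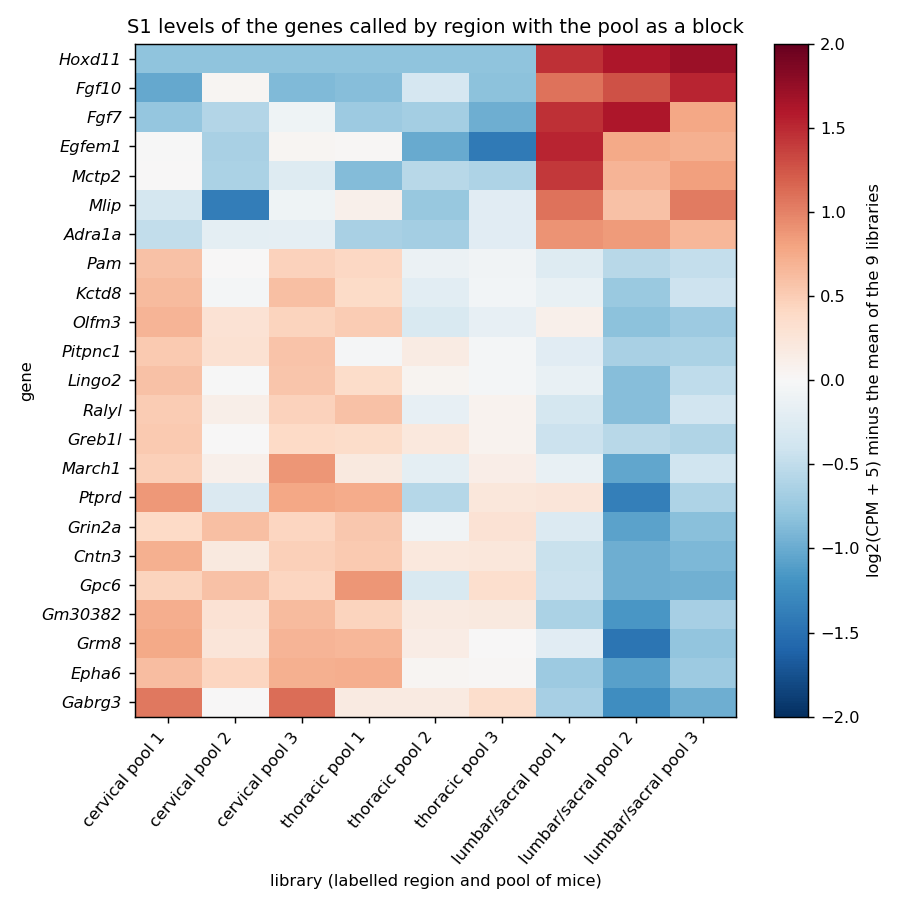
Heat map of S1 levels of the 23 genes called between lumbar/sacral and other libraries with the pool as a block; each row is a gene, each column a library, and the colour is log2(CPM + 5) minus the mean of the gene. The 7 higher genes stand out in the 3 lumbar/sacral columns, as do most of the 16 lower ones in the other direction. For Ptprd, Olfm3, Kctd8 and March1, among the lower genes, the levels of lumbar/sacral and other libraries overlap.

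Whether region acted differently on S1 than on the other types was tested by an interaction term. No gene was called in the 9 libraries, against S2 (0.0%, 549 of 11465 genes at an unadjusted p under 0.05) or against S3 (0.0%, 140). Without the cervical and thoracic libraries of pool 2, which leave 7, 20 of 11228 genes (0.178%) were called against S2 and 12 (0.107%) against S3. Grin2a was called in both, where the lumbar/sacral difference in S1 minus that in S2 was -0.91 and minus that in S3 -0.94, as was Ralyl (-0.65 and -0.67). Egfem1 was called in both in the other direction (1.0 and 0.99). Against S2, the largest were Col24a1 (2.59), Cadps2 (-2.56) and Gabrg3 (-2.01), and Cntnap3 was among them (-1.71). Against S3, Plscr4 (-1.56), Pdzrn3 (1.47), Grm8 (-1.14) and Cntn3 (-1.03) were the largest. These calls depend on leaving out 2 libraries after the values were seen.

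Between the male and female pools, 4 of 9740 genes (0.0411%) were called in S1 by limma with a term for region: Uty and Eif2s3y of the Y chromosome higher in males, and Xist and Tsix of the X chromosome higher in females. By the same test 1017 genes, these 4 included, had an unadjusted p under 0.05. Xist and Tsix overlap on opposite strands. Each sex was 1 pool of mice, and the count rested on single libraries: it was 843 without cervical replicate 2, 962 without cervical replicate 3 and 0 to 2 without any 1 of the others.

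S1 was not uniform. Over 1648 genes with a mean of at least 0.5 corrected counts in every S1 library, the share of nuclei at 0 exceeded that of a Poisson distribution by a median of 0.187 percentage points, but for Cntn5, Hmcn1, Prkg1, Gm32647, Epha6, Adarb2, Sorcs1 and Pcdh11x the excess was 21.4 to 30.3 points (median of libraries). S2 and S3 held such excesses too. Gm32647 had 34.0 points in S2 and 14.4 in S3, Adarb2 31.1 and 31.7, Cntn5 2.89 and 27.7, and Sorcs1 2.23 and 17.0. These genes were chosen after their values were seen, and the following values only describe. Of the 28 pairs of these 8 genes, 3 went one way in 9 of 9 S1 libraries. Between nuclei with and without a Gm32647 count, the share with an Epha6 count differed by -18.1 ± 15.1 points and that with a Sorcs1 count by 22.3 ± 10.6 points, and Epha6 and the sorting receptor Sorcs1 formed the third pair. In S1 nuclei with an Epha6 count, 46.5 ± 17.4% also had a Sorcs1 count, against 72.4 ± 18.7% of those without (mean ± SD, n = 9). The share was lower in 9 of 9 libraries, by 7.36 to 51.7 points, at median totals of 8506.5 and 8697 corrected counts. In S2 the difference was -1.61 ± 10.1 points (n = 8) and in S3 -10.7 ± 11.1 (n = 7, lower in 6). The share of S3 nuclei with a Gm32647 count was lower with Epha6 than without in 7 of 7 libraries (-9.87 ± 6.87 points). With Sorcs1 it was higher in 8 of 9 (8.13 ± 6.91). For S2 these differences were -9.84 ± 28.2 (n = 8) and -2.61 ± 11.5 points (n = 4).

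**Figure D5:**
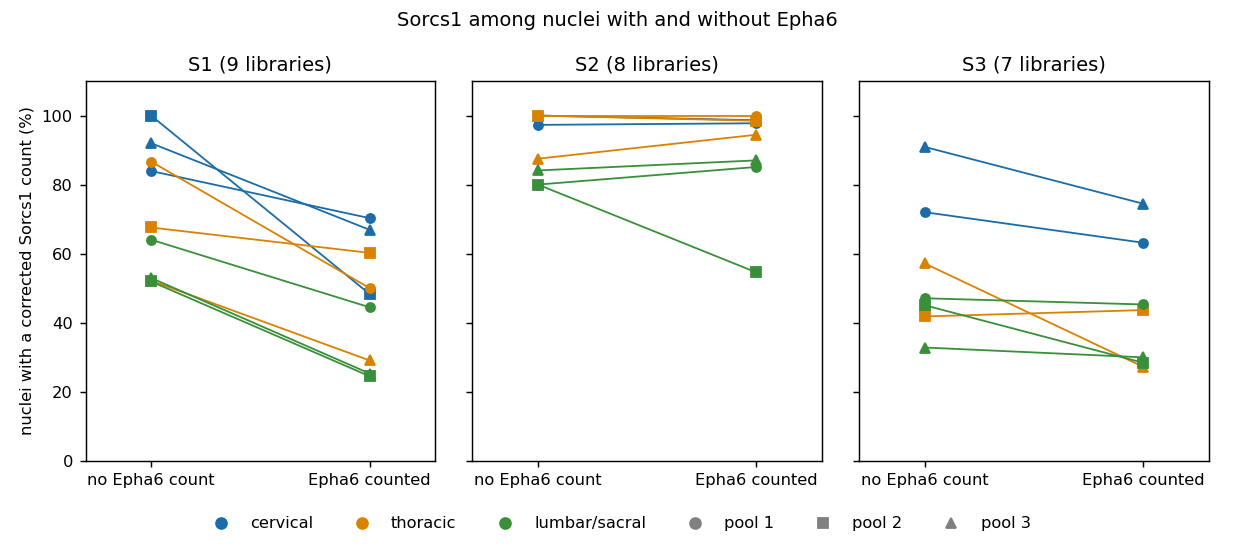
Share of nuclei with a corrected Sorcs1 count (percent) among nuclei without and with an Epha6 count, for S1 (9 libraries), S2 (8) and S3 (7), with a line per library in the colour of its labelled region. All 9 lines fall in S1, and 6 of 7 fall in S3.

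Epha6 was counted in 72.1 to 85.8% of S1 nuclei in the 6 rostral libraries and in 45.7 to 49.3% in the 3 lumbar/sacral ones. Nuclei with Epha6 alone were set against nuclei with Sorcs1 alone in the 8 libraries that had at least 10 of both. The further genes named here were picked because they differed in the same direction 8 times. The share of all genes that did so is not given, so these values only describe. Mecom, a zinc finger transcription factor, had 98.0 ± 49.0 CPM with Epha6 and 4.56 ± 6.55 with Sorcs1. Prima1, which anchors acetylcholinesterase in neuronal membranes, had 26.0 ± 11.8 and 8.63 ± 9.80, and the homeobox factor Cux2 108 ± 24.2 and 37.9 ± 9.10. Higher with Sorcs1 were Tmem132c (16.7 ± 8.15 CPM with Epha6, 86.4 ± 18.2 with Sorcs1), the guidance receptor Robo2 (129 ± 25.7 and 389 ± 193) and the GABA-A receptor subunit Gabra2 (94.0 ± 23.6 and 212 ± 85.9). Nuclei with neither gene numbered 0 to 50 per library.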

How the data were processed

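Nuclei of 9 libraries (3 regions by 3 pools of 4 mice) were sequenced as droplet libraries. Per the labels and methods, the authors used Cell Ranger 3.1.0 with a GRCm38 (mm10) reference of unspliced transcripts, corrected them with SCTransform in Seurat, and clustered the nuclei. DESeq2 is also named in the submitters' processing notes. The deposited values, taken as a score from a model because they are corrected counts and not raw ones, cover 21457 features in 16042 cholinergic nuclei, and a deposited annotation of 34231 nuclei gave cluster, library and skeletal type.

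Corrected counts were summed per library and cluster (at least 10 nuclei), scaled to CPM, and tested with limma 3.58.1 (R 4.3.3, trend) on log2(CPM + 5) where a gene reached 10 CPM in 3 sums or more. Type contrasts used S1, S2 and S3 sums with a library term. Region and sex fits used S1 sums, and interactions all 3 types. Calls took an adjusted p under 0.05 and, between types, a difference of at least 1. Replicates are libraries of pooled mice.

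Same-numbered libraries come from the same mice, so the pool was used as a block beside the unblocked fit. Their deviations from region means correlated at a median r of 0.523 (-0.138 to 0.756, 9 pairs), against -0.328 (-0.701 to 0.464) for 18 other pairs. Deviations from a region mean cancel out within the region, which pushes r between pools below that within pools, so these medians are no test. Cervical replicate 3 had r of -0.138 and -0.101 with its own pool, but 0.295 and 0.375 with pool 1. On simulated data with 200 changed genes, limma recovered 96.5% in the S1 to S2 layout (11465 genes), 86.0% in the region layout (10025 genes) and 74.0% in the interaction layout. Of its calls 2.53, 7.53 and 6.33% were false. All planted changes were larger than 1 on the log2 scale, the simulated libraries held no pool effect, and the region fit had no block. These rates therefore say nothing on smaller differences or on the blocked region fit.

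Genes named in the text are the markers, the 20 and 12 genes of largest smaller difference called in both contrasts and moved the same way in every library, 10 genes each shared with S2 or S3, called region and interaction genes, measured Hox genes and up to 5 members of each gene list with the largest difference. Other genes, such as Chat, Ache and the genes of MN disease, were named after their values were seen. The cluster, its markers and the gene lists were chosen with earlier results of these data known. Nuclei were thinned to 4600 corrected counts for a depth check, which left out 67 S1 nuclei (4.38%), and doublets were scored with Scrublet in scanpy 1.11.5. Coordinates are from GENCODE (GRCm38), and start regions from RefSeq (GRCm38.p6). Alternatives were other scaling, filters, pseudocounts, library terms, left-out libraries, pools and doublets, and single regions. Leaving out both pool 2 libraries that go against their labels was chosen after seeing the data. Raw molecule counts were not analysed here. Other calculations used Python 3.11.15, numpy 2.4.6, pandas 2.3.3, scipy 1.17.1 and matplotlib 3.10.9, with the seed 1. Some genes of the lists are not reported here.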

Additional observations from a re-analysis of the deposited data

Results flagged for a closer look

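Of 55 series of 9 library values checked, 6 held a lowest or highest library set far apart from the rest by Dixon's 95% limit, where chance alone gives about 1 in 20. Cntnap3 in S1 was at 199.8 CPM in the library labelled cervical replicate 2, above the other 8 libraries. Rora in S1 was at 15626 CPM in cervical replicate 3. Htr1d in S2 was at 28.6 CPM in lumbar/sacral replicate 2, against an S2 median of 1.42. Mbp in S1 was at 48.1 CPM in thoracic replicate 3, the lowest library. The position of S1 between gamma (0) and alpha (1) MNs was 0.904 for genes higher in alpha MNs in cervical replicate 2, and 0.846 for genes higher in gamma MNs in lumbar/sacral replicate 2. In both of these libraries the S2 nuclei had higher Gpr149 levels than in the other 7 libraries, and the part of this in the positions was not tested.

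The lumbar/sacral difference of S1 differed from that of S2 for 20 genes and from that of S3 for 12 genes by the interaction term of limma, in the 7 libraries left without the cervical and thoracic libraries of pool 2, and for 0 genes in all 9. Outside the endogenous genes, the reporter feature for GFP had a mean of 12.1 CPM in S1 (SD 3.29, n = 9, from 6.48 to 19.2), in every library above 0.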

How the results depend on the processing

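Counts of genes called moved by over 1.5 times under a few alternatives, and the cause was not tested unless the alternative's construction shows it. Asking for 10 corrected counts in every sum, which tests fewer genes, left 179 genes between S1 and S2, 208 between S1 and S3, 25 higher and 19 lower than in both, 5 by region, 1 and 1 by interaction against S2 and S3, and 0 by sex. A pseudocount of 1 gave 901 genes between S1 and S2 and 103 lower than in both. A pseudocount of 20 gave 293, 341, 41 and 25 in the type comparisons, 8 by region, 1 by interaction against S2 and 7 by sex. Without a filter, region had 9 genes, the interactions 1 and 7, and sex 7. Scaling by the median of ratios gave 7 by sex. Cervical libraries alone gave 398 genes between S1 and S3, thoracic alone 55 higher than in both, and lumbar/sacral alone 82 lower than in both. The replicate block (the pool as a term) gave 23 genes by region and changed no other count beyond 1.5 times where it was run. Without the pool 2 libraries of cervical and thoracic cord, an alternative chosen after seeing the data, region had 2 genes, cervical against thoracic 1 (Hoxc5, by which those libraries were doubted), and the interactions 20 and 12. Leaving out 1 library or pool gave 533 to 782 genes between S1 and S2, 583 to 632 between S1 and S3, 77 to 93 higher and 51 to 62 lower than in both, 0 to 9 by region (9 without cervical replicate 2), 0 to 1 between cervical and thoracic, 0 to 7 and 0 to 5 by interaction (most without pool 2), and 0 to 962 by sex. The lumbar/sacral share of S1 minus the rest, 0.823 points, ranged from -1.91 to 4.36, and 21 to 23 of 28 marker shares passed, at a smallest exact p of 0.0312. For named genes, 7055 values between types kept direction and side of the threshold, 188 lost a call, 85 gained one, 146 uncalled values changed sign, and Kcnq5 (0.019) and Grik1 (0.42) turned against S2 in thoracic libraries alone. Depth limits genes of few counts, since 40 of the 86 genes were under 50 CPM in S1. Sums of 26 to 396 nuclei enter the type comparisons with equal weight.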
